A study of Mus musculus with 2 samples.

Results

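Members of the interleukin 1 family and its receptors were followed in droplet-based single-cell transcriptomes of the whole uterus of mice. They were taken by symbol, and 10 of the 32285 genes in the files matched: the ligands Il1a, Il1b, Il18, Il33, Il1f6 and Il1f9, the antagonist Il1rn, and the receptors Il1r1, Il1r2 and Il1rl1. The data were 2 libraries, each from the pooled uteri of 3 female C57BL/6J mice aged 6 months. The library labelled control came from Prickle1 f/f mice and the library labelled cKO from Prickle1 f/f MiC mice, where f/f stands for a floxed allele carried by both groups. The labels do not say what MiC is, and the genotype entry is wild-type for each of them. The study is about the myometrium without Prickle1, whose product takes part in planar cell polarity, and the comparison here asks how the family's transcripts differ between the libraries in each kind of uterine cell.

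Interleukin 1 alpha and beta bind the receptor encoded by Il1r1 and start a signal through MyD88, IRAK kinases and NF-kB that induces cytokines, chemokines and prostaglandin synthesis. The receptor antagonist encoded by Il1rn binds the same receptor without starting the signal, and Il1r2 encodes a decoy receptor without a signalling domain. Interleukin 33 is a nuclear alarmin released by damaged barrier and endothelial cells, and its receptor ST2, encoded by Il1rl1, is best known on mast cells and type 2 innate lymphoid cells. Il1f6 and Il1f9 encode interleukin 36 alpha and gamma, cytokines of stressed squamous epithelium, which act on the receptor encoded by Il1rl2. Interleukin 18 is made as a precursor that caspase 1 cuts, and drives interferon gamma in T and NK cells.

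Positions are on GRCm38 (mm10), per GENCODE M21, and 8 of the members fall into groups on chromosomes 1 and 2. Il1r2 (chr1:40074079-40125231), Il1r1 (chr1:40225080-40317257) and Il1rl1 (chr1:40429570-40465415) follow each other in that order on the plus strand, with gaps of 99.8 and 112.3 kb. Il1f9 (chr2:24186476-24193568), Il1f6 (chr2:24215418-24225702) and Il1rn (chr2:24336853-24351494) lie on the plus strand of chromosome 2, with gaps of 21.9 and 111.2 kb. Il1a (chr2:129299610-129309972) and Il1b (chr2:129364570-129371139) lie 54.6 kb apart on the minus strand of the same chromosome. Il18 is at chr9:50554827-50581840 and Il33 at chr19:29925114-29960718, both on the plus strand. All 10 are protein coding. Il1a, Il1b, Il18 and Il1r2 overlap a gene on the other strand, and Il1r1 and Il1r2 overlap a predicted gene on their own strand, so reads in those overlaps may be shared or lost.

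Il1rl1 and Il1rn have alternative first exons and were found in unrelated cell types. Soluble and membrane-bound forms of ST2, and secreted and intracellular forms of the antagonist, are made from the same gene. The counts here come from transcript 3′ ends and merge all starts, so no form can be told from another. The 250 bases before each of the first 2 RefSeq starts of both genes (GRCm38.p6, plus strand) are shown for orientation, with matches to 4 searched motifs in capitals. The starts lie 10.1 kb apart in Il1rl1 and 8.4 kb apart in Il1rn.
Il1rl1 start 1, chr1:40429320-40429569: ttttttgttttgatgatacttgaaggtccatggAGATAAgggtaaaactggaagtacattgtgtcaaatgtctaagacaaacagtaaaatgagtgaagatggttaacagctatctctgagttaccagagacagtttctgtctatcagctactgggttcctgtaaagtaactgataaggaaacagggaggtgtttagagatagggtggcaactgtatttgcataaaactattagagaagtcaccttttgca
Il1rl1 start 2, chr1:40439379-40439628: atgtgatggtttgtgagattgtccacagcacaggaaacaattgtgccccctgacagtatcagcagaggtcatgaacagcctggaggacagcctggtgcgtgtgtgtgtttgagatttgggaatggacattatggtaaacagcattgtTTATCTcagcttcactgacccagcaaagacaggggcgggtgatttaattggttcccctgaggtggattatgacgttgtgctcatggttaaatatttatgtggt
Il1rn start 1, chr2:24336610-24336859: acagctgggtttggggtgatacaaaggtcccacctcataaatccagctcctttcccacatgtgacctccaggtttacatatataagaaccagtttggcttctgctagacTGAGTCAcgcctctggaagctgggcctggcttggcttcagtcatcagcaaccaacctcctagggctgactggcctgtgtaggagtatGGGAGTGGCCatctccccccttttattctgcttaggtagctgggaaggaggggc
Il1rn start 2, chr2:24345041-24345290: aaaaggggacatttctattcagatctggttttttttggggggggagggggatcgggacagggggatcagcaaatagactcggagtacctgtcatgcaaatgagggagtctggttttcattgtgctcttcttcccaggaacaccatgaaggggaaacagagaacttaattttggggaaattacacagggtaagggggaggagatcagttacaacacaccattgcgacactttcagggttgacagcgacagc
The motifs, searched on both strands, were AGATAA for GATA factors, TGANTCA for AP-1, the NF-kB motif, and TATAAA for the TATA box, and no matches overlapped in these windows. Both Il1rl1 windows held 1 AGATAA match, a motif present in 9.99% of 32851 promoter windows of this length. The first Il1rn window held 1 TGANTCA match and 1 NF-kB match, which occur in 6.75% and 45.8% of all windows. The second held none of the 4. RefSeq windows were found for 9 of the 10 members (14 windows), of which 3 held AGATAA, 2 TGANTCA, 3 NF-kB and 5 TATAAA.

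The library labelled control held 45035801 UMIs (unique molecular identifiers, which count captured transcripts) and 3490 cells with a median of 4953 UMIs. The library labelled cKO held 34261441 UMIs and 3586 cells with a median of 4903. In all, 6 barcodes occurred among the cells of both libraries. Prickle1 itself was not lower under the cKO label: smooth muscle-like cells gave 14 UMIs under the control label and 51 under the cKO label, or 15.2 and 24.3 CPM (counts per 1000000 UMIs of the class). A 3′ count need not read the deleted part, so this checks nothing about the deletion, and the libraries are named by their labels throughout. With 1 library per group no p-value or replicate error can be given. Intervals are 95% and cover counting error only, not variation between cells, mice or preparations. A member was called higher or lower past a log2 ratio of 1 on the CPM + 5 scale, cKO over control, and only with at least 20 UMIs over both libraries in the class.

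Cells were grouped into 24 clusters, without using the members, and named X-like from marker genes. Epithelium-like cells made up 37.6% of the library labelled control (1313 cells) and 3.07% of that labelled cKO (110 cells). Control first, there were 855 and 1337 fibroblast-like cells, 318 and 228 of macrophage or monocyte type, and 153 and 211 of dendritic cell type. The dendritic cell-like cluster rests on 3 of its 9 markers (Ccr7, Flt3 and Zbtb46) seen in at least 25% of cells, with Siglech at or near 0. Mast cell-like cells (42 and 53) had 8 of their 9 markers in at least 25% of cells, but Ms4a2 was at 0 in the library labelled control. Neutrophil-like cells (6 and 31) and blood endothelium-like cells (9 and 28) were too few to compare and are given as levels. In the text below a pair of values lists the library labelled control first unless it says otherwise.

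**Figure D1:**
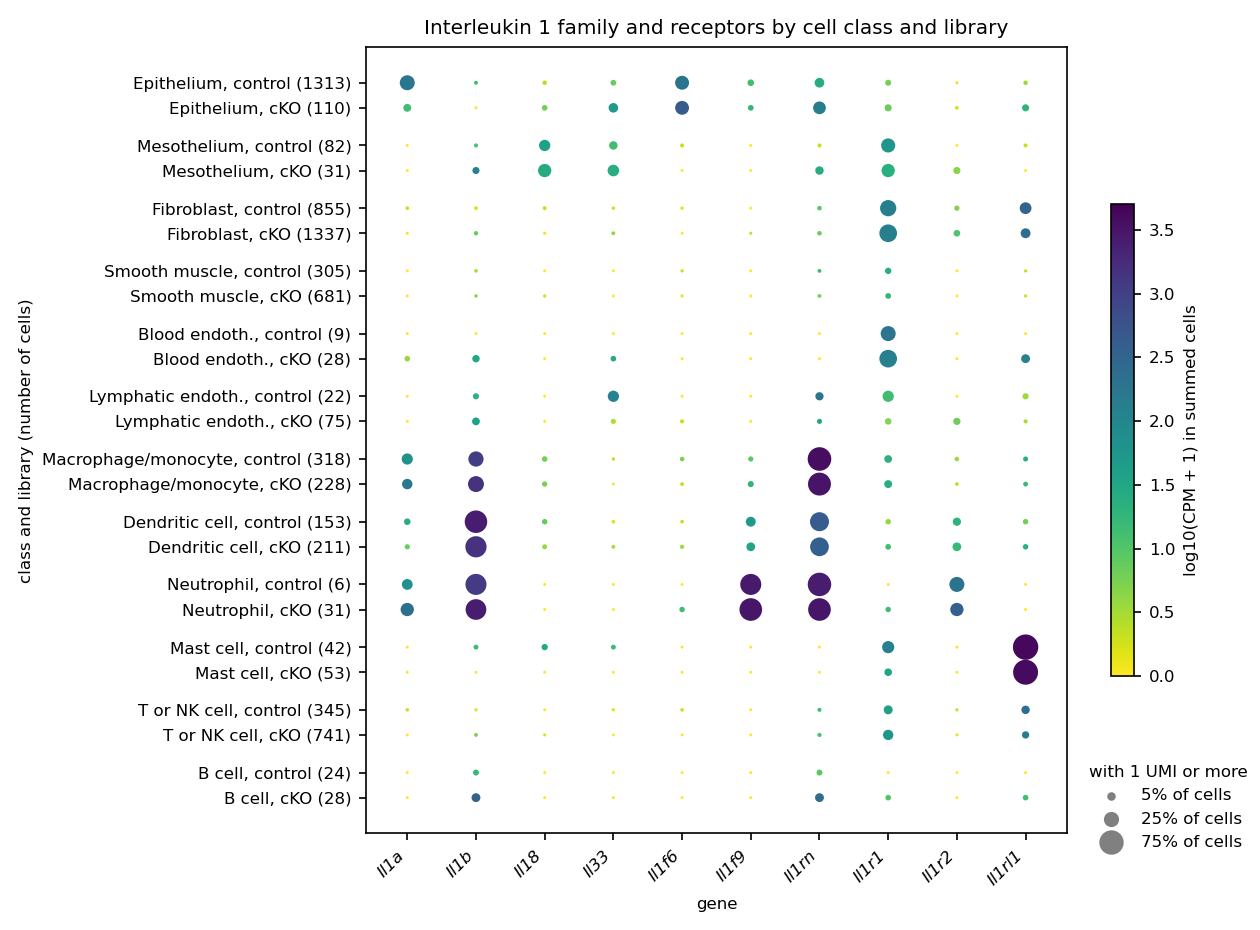
Level and spread of the 10 genes (columns) in each class and library (rows, with the number of cells). Colour is log10(CPM + 1) of the summed cells and dot area the percent of cells with at least 1 UMI. The antagonist Il1rn is highest in macrophages or monocytes, Il1b in dendritic cells or neutrophils, Il1f9 in neutrophils, Il1r1 in blood endothelium and fibroblasts and Il1rl1 in mast cells.

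Il1a, the alarmin form of interleukin 1 that is active without caspase 1, was mainly an epithelial transcript in the library labelled control. Epithelium-like cells there held 3344 Il1a UMIs (177 CPM, 171 to 183), which was 93.4% of that library's total, in 33.2% of cells. In the library labelled cKO they held 17 UMIs (12.6 CPM, 7.34 to 20.2) in 8.18% of cells. The ratio of cKO over control was 0.0712 (0.0414 to 0.114), a log2 ratio of -3.37. In smooth muscle-like cells, which should lack the gene, 0% of cells in either library had an Il1a UMI, at median depths of 1886 and 2010 UMIs against 4370 and 4066 in epithelium. After thinning each cell to 1000 UMIs the epithelial shares were 7.77% and 1.82%.

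Where the Il1a UMIs lay differed between the libraries as the epithelial clusters did. Cluster 8 was made of 229 control and 0 cKO cells and carried 2655 UMIs (263 CPM), or 74.1% of all Il1a in its library. Its cells were 7.14 times as deep as the median cell. Cluster 0 (554 and 2 cells) had 217 UMIs (81.2 CPM) in the library labelled control. Cluster 2 was the epithelial cluster found in both (530 and 108 cells), and there Il1a stood at 77.0 CPM (472 UMIs) and 12.7 CPM (17 UMIs), a ratio of 0.165 (0.0951 to 0.266) and a log2 ratio of -2.21. Over sub-clusters E0 to E13 of all epithelium the control values ran from 36.3 CPM in E5 to 276 CPM in E3 among those with at least 10 UMIs, and the squamous-type-like sub-cluster E9 had 79.4 and 19.2 CPM in 36 and 6 cells. So Il1a was lower under the cKO label inside the shared cluster as well, by less than over all epithelium. The libraries differed in sub-clusters too, with 27 and 53 cells in E11 and 60 and 31 in E1. The shared cluster is therefore not a comparison of matched cells.

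Macrophage or monocyte-like cells pointed the other way for Il1a, but on few cells. They held 184 UMIs (65.4 CPM) and 271 UMIs (156 CPM), a ratio of 2.39 (1.97 to 2.90) and a log2 ratio of 1.20. The shares of cells with a UMI were 17.9% and 15.4%. A single cell held 107 of the 271 UMIs, and with cells thinned to 1000 UMIs the log2 ratio was -0.24. Dendritic cell-like cells held 41 and 12 UMIs, with 26 of the 41 in 1 cell. Without the cell with the most UMIs in each library the log2 ratios were 0.75 in macrophages or monocytes and -0.55 in dendritic cells, neither past the fold. In the dendritic cell-like class epithelial markers took 0.0825% and 0.0176% of UMIs, with 0 of 8 in at least 25% of cells, and their part in its Il1a values was not tested. Summed over all cells, Il1a was 95.4 and 10.9 CPM, and since the share of epithelium differed so much this sum does not separate fewer cells from less transcript per cell.

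Il1f6, which encodes interleukin 36 alpha, was the most restricted of the ligands: 99.3% and 98.1% of its UMIs lay in epithelium-like cells. They held 3505 UMIs (186 CPM) in 28.6% of cells and 581 UMIs (431 CPM) in 28.2% of cells. The ratio was 2.32 (2.12 to 2.54), a log2 ratio of 1.19, past the fold. In cluster 2 alone the levels were 401 CPM (2459 UMIs) and 433 CPM (581 UMIs), a ratio of 1.08 (0.985 to 1.18). The difference over all epithelium thus went with clusters 0 and 8, which had 60.3 and 87.7 CPM and hardly any cells of the library labelled cKO.

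Within the epithelium Il1f6 was concentrated in the squamous-type-like sub-cluster E9, led by Sprr2d and other cornified envelope genes. Of its 7 squamous markers 5 and 4 were in at least 25% of cells, with Krt5 at 0 in both libraries and Krt13 and Ivl at 0 in the cKO cells. Its 36 control cells held 1797 UMIs (1019 CPM) and its 6 cKO cells 433 UMIs (756 CPM), or 50.9% and 73.1% of all Il1f6 in their libraries. Single cells weighed heavily: 1 cell held 329 of the control UMIs and another 255 of the 433 in the library labelled cKO. Sub-cluster E11, led by Gpx2 and Clu, had 367 CPM (23 UMIs) and 276 CPM (138 UMIs). Il1a and Il1f6 were seen together in 230 of the 436 Il1a-positive control cells (52.8%), against 16.5% of Il1a-negative ones, at median depths of 20643 and 3312 UMIs. That contrast follows depth as well as cell identity, and the part of depth was not tested.

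Il1f9, which encodes interleukin 36 gamma, was highest in neutrophil-like cells, with 44 UMIs (2825 CPM) in 6 control cells and 230 UMIs (3072 CPM) in 31 cKO cells. Those few cells held 11.6% and 62.3% of all Il1f9 UMIs. Epithelium held 232 UMIs (12.3 CPM) and 24 UMIs (17.8 CPM), a ratio of 1.45 (0.910 to 2.21). In cluster 2 the levels were 31.5 and 17.9 CPM, a ratio of 0.568 (0.355 to 0.871), so the direction over all epithelium and in its shared cluster differed. Both ratios rest on few cells: the 24 cKO UMIs lay in 4 cells, and 1 cell held 10. Sub-cluster E9 held 23 of them in 3 cells, and 111 control UMIs in 17 cells. In dendritic cell-like cells, the class with its highest level among those compared, the values were 48.3 CPM (81 UMIs) and 32.5 CPM (64 UMIs), a ratio of 0.672 (0.477 to 0.945). No class showed Il1f9 past the fold.

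Il33 was sparse, with 194 and 147 UMIs in all cells. Epithelium-like cells held 119 UMIs (6.30 CPM) and 69 UMIs (51.1 CPM), a ratio of 8.12 (5.95 to 11.01) and a log2 ratio of 2.31. In cluster 2 the levels were 11.4 CPM (70 UMIs) and 51.4 CPM (69 UMIs), a log2 ratio of 1.78. Of the 69 cKO UMIs, 56 were in 8 cells of E1, a sub-cluster led by Top2a and Cks2, genes of dividing cells, where the levels were 5.71 and 279 CPM. Lymphatic endothelium-like cells, nominally the top class, held 48 and 2 UMIs, and 42 of the 48 were in 1 cell. The ratio of control over cKO there was 62.3 (16.3 to 529). Mesothelium-like cells showed Il33 more evenly, with 12 UMIs in 8 cells and 13 UMIs in 6 cells (12.8 and 23.2 CPM, ratio 1.81, 0.762 to 4.34).

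Il18 had the fewest UMIs of the ligands, 100 and 43 in all cells, and mesothelium-like cells held the largest part. They had 35 UMIs (37.4 CPM, 26.0 to 52.0) in 18.3% of cells and 15 UMIs (26.8 CPM, 14.99 to 44.2) in 25.8% of cells. The ratio was 0.717 (0.364 to 1.35), within counting error. Macrophages or monocytes had 14 and 8 UMIs (4.98 and 4.62 CPM) and epithelium 28 and 7 (1.48 and 5.19 CPM), neither past the fold.

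**Figure D2:**
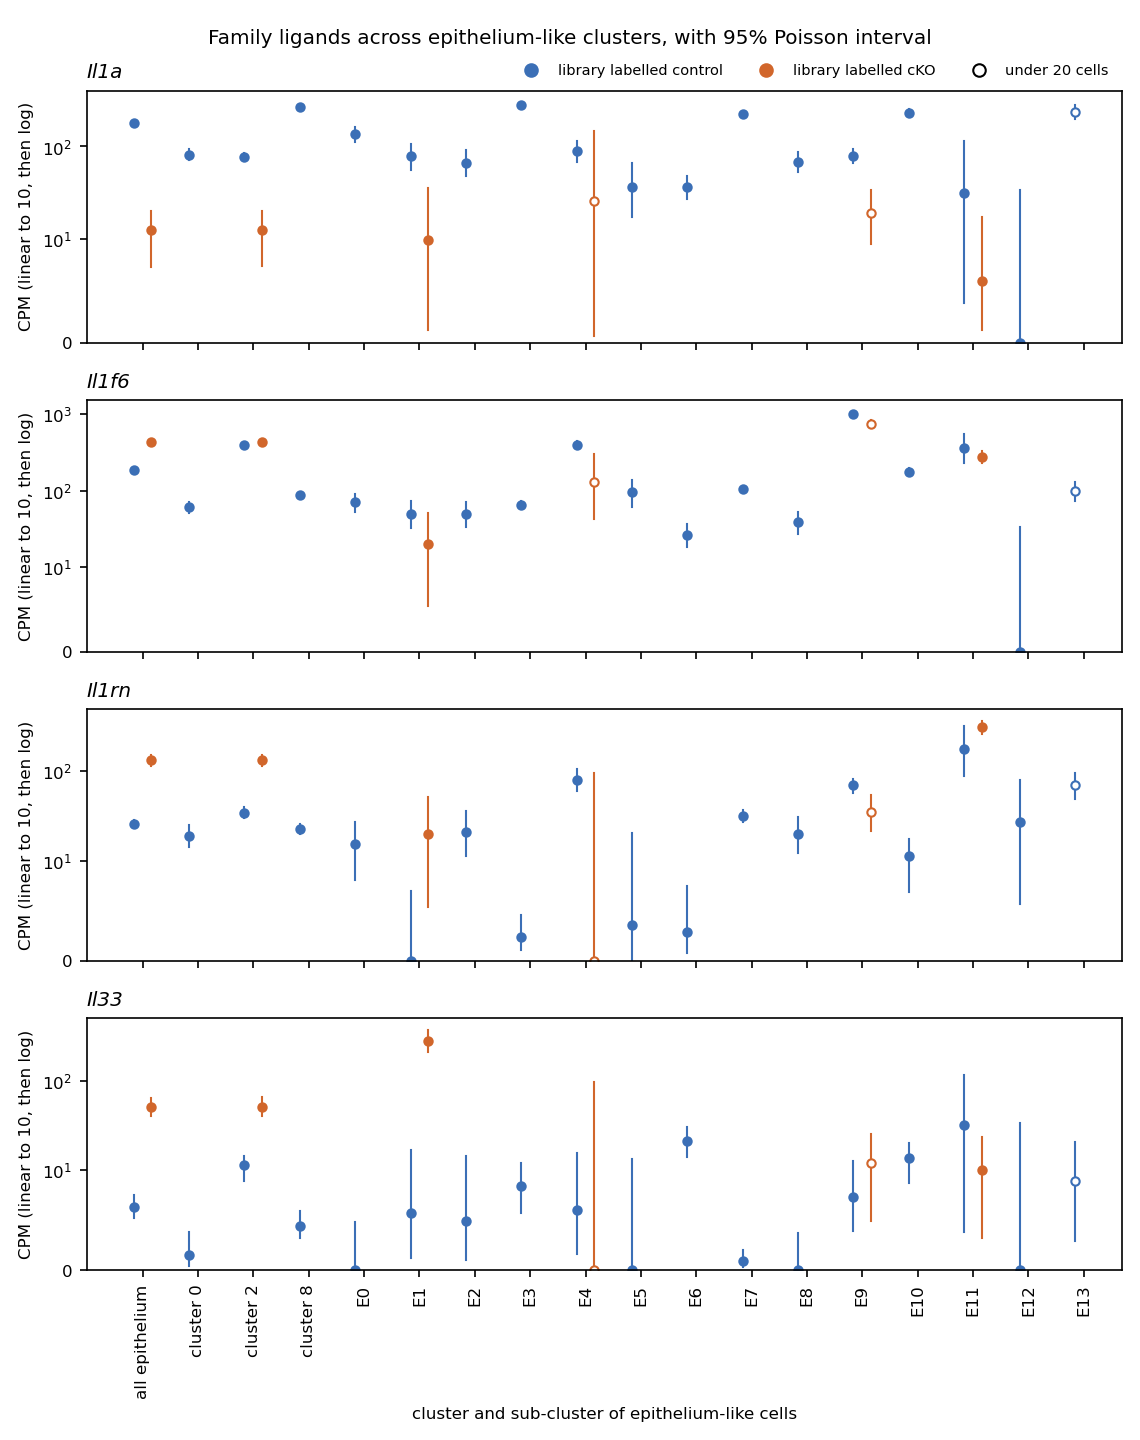
Level of Il1a, Il1f6, Il1rn and Il33 (CPM, linear to 10 and then logarithmic) in all epithelium-like cells, in the 3 epithelial clusters and in sub-clusters E0 to E13, by library. Bars are 95% Poisson intervals, open points rest on under 20 cells, and points with under 5 cells are left out. Il1a is lower under the cKO label in cluster 2 (77.0 and 12.7 CPM), Il1f6 is nearly level there (401 and 433 CPM), and E9 holds the highest Il1f6.

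Il1b, the inflammasome-dependent ligand, was a myeloid transcript in both libraries. Dendritic cell-like cells held 4362 UMIs (2599 CPM, 2523 to 2678) in 76.5% of cells and 2907 UMIs (1474 CPM, 1421 to 1529) in 67.8% of cells. The ratio was 0.567 (0.541 to 0.595), a log2 ratio of -0.82, short of the fold. With libraries scaled by the median ratio of genes in the class the log2 ratio was -1.03. Macrophages or monocytes held 3117 UMIs (1108 CPM) and 2528 UMIs (1459 CPM), a ratio of 1.32 (1.25 to 1.39) in the other direction, in 34.3% and 37.7% of cells. Summed over all cells Il1b was level, at 208 and 204 CPM.

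Neutrophil-like cells held 18 UMIs (1156 CPM) in 4 of 6 cells and 189 UMIs (2525 CPM) in 20 of 31 cells. Outside the myeloid classes Il1b lay in few cells. Epithelium-like cells had 256 and 0 UMIs, so the control level was at least 6.09-fold higher (floor of 3 UMIs per library). Of the 256 control UMIs, 251 lay in the 15 cells of E13, a sub-cluster led by H2-Eb1, Ccr7 and Cd74, genes of dendritic cells, which held 1 cell of the library labelled cKO. B cell-like cells had 2 and 115 UMIs, with the 115 in 3 cells, and mesothelium-like cells 10 and 65, in 1 and 2 cells. In smooth muscle-like cells, which should lack Il1b, 0.656% and 0.441% of cells had a UMI.

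Il1rn, the natural brake on interleukin 1, was the most abundant member by summed UMIs, with 11943 and 7029 in all cells. Macrophages or monocytes held 10529 UMIs (3744 CPM, 3673 to 3817) in 84.3% of cells and 5624 UMIs (3246 CPM, 3161 to 3331) in 79.4%, a ratio of 0.867 (0.839 to 0.895). Thinned to 1000 UMIs per cell the shares were 69.8% and 66.7%, against 0.984% and 0.441% in smooth muscle-like cells. Dendritic cell-like cells had 415 and 374 CPM, and neutrophil-like cells 2504 and 3045 CPM. Il1rn was past the fold in neither macrophages or monocytes nor dendritic cells.

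Macrophages or monocytes with an Il1b UMI nearly all carried Il1rn too: 91.7% of 109 control cells and 89.5% of 86 cKO cells. Among those without Il1b the shares were 80.4% and 73.2%, at lower median depth (6587 against 9469 UMIs in the library labelled control). In dendritic cells 63.2% and 59.4% of those with Il1b also had Il1rn. Across the 24 clusters the levels of Il1b and Il1rn had a Pearson correlation of 0.895 on the log2(CPM + 5) scale, the highest of any pair of members, given as a description.

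In epithelium-like cells Il1rn was higher under the cKO label, with 490 UMIs (25.9 CPM) and 177 UMIs (131 CPM), a ratio of 5.06 (4.24 to 6.02) and a log2 ratio of 2.14. Cluster 2 alone gave 34.4 and 132 CPM, a log2 ratio of 1.80. Of the 177 cKO UMIs, 153 were in sub-cluster E11 (53 cells, 306 CPM), where the 27 control cells had 11 UMIs (175 CPM). In lymphatic endothelium-like cells 73 of the 77 control UMIs were in 1 cell, and the log2 ratio of -2.46 turned to 2.90 when the cells with the highest doublet scores were removed.

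Il1r1, the signalling receptor, was foremost a fibroblast transcript and its level there was close in both libraries. Fibroblast-like cells held 1244 UMIs (131 CPM, 124 to 138) in 39.3% of cells and 2050 UMIs (128 CPM, 123 to 134) in 46.7%, which was 78.6% and 84.7% of all Il1r1. The ratio was 0.979 (0.912 to 1.05). Over all cells Il1r1 stood at 42.1 and 82.5 CPM, beside fibroblast-like shares of 24.5% and 37.3% of cells.

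Of the 3 fibroblast clusters with at least 100 cells in each library, Il1r1 took the same order in both. Cluster 6, led by Ptx3, Has2 and Thbd, was highest (213 and 186 CPM), followed by cluster 7 (129 and 135 CPM) and cluster 5 (90.1 and 90.8 CPM). Cluster 21, with 19 and 262 cells, had 81.7 and 80.7 CPM. Outside fibroblasts the gene was seen in T or NK-like cluster 9, led by Trdc and Cd163l1 as gamma delta T cells are, at 143 and 140 CPM in 36.1% and 36.5% of cells, a ratio of 0.976 (0.722 to 1.34). NK-type cluster 12 held 0 and 1 UMI in 139 and 298 cells, at similar median depths of 4937 and 4056 UMIs. Blood endothelium-like cells had 179 CPM (10 UMIs) and 125 CPM (45 UMIs). Mesothelium-like cells had 57.7 CPM (54 UMIs) and 21.4 CPM (12 UMIs), a log2 ratio of -1.25.

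Il1rl1, which encodes ST2, gave its highest level in mast cell-like cells: 301 UMIs (4192 CPM, 3732 to 4693) in 97.6% of cells and 479 UMIs (3851 CPM, 3514 to 4212) in 94.3%. The ratio was 0.919 (0.794 to 1.06). These shallow cells (median 1414 and 1582 UMIs) kept shares of 95.2% and 90.6% after thinning, against 0% and 0.147% in smooth muscle-like cells. The other expected site, the ILC2-like sub-cluster T11 led by Il5, had 2351 CPM (277 UMIs, 20 of 21 cells) and 2846 CPM (350 UMIs, 25 of 25 cells). Of its 7 ILC2 markers 5 and 4 were in at least 25% of cells, and Il13 was at 0 in both libraries. Cluster 18, which contains it, had 716 and 754 CPM, a ratio of 1.05 (0.919 to 1.21).

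Most Il1rl1 UMIs nevertheless lay in fibroblast-like cells, 76.9% and 75.2% of the libraries' totals. The class held 3041 UMIs (319 CPM) in 171 of 855 cells and 3901 UMIs (244 CPM) in 183 of 1337, a ratio of 0.762 (0.727 to 0.7996), short of the fold. Cluster 6 was again highest, at 691 and 593 CPM (1882 and 3232 UMIs) in 41.7% and 30.5% of cells, while cluster 21 had 9.08 and 9.26 CPM (3 and 46 UMIs). Cluster 7 had 139 and 60.4 CPM, a log2 ratio of -1.14, and the shallow cluster 13 231 and 411 CPM. Levels were uneven within cluster 6, where the 10 highest cells held 54.6% and 45.8% of the UMIs and 1 cKO cell held 312. In cluster 6, 44.7% and 36.0% of Il1r1-positive cells also had Il1rl1.

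Free RNA, read from empty droplets, was estimated at 3.44% and 3.15% of cell UMIs, medians of 13 estimates that ran from 1.08% to 18.5% and from 0.703% to 15.02%. The medians would give 7.36 and 8.12 CPM of Il1rl1. The estimate from smooth muscle markers in cKO epithelium, 7.31%, would give 18.8 CPM. By comparison the Il1rl1 values of epithelium (2.54 and 19.3 CPM) and dendritic cells (5.36 and 21.3 CPM), both past the fold, rest on 7 cells each in the library labelled cKO, and the part of free RNA in them was not tested.

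Il1r2, the decoy, was highest in neutrophil-like cells at 193 CPM (3 UMIs) and 374 CPM (28 UMIs). Dendritic cell-like cells had 19.1 CPM (32 UMIs) and 15.2 CPM (30 UMIs), a ratio of 0.798 (0.468 to 1.36). Fibroblast-like cells had 4.20 CPM (40 UMIs) and 9.43 CPM (151 UMIs), a ratio of 2.24 (1.57 to 3.26), with a log2 ratio of 0.65 on the CPM + 5 scale. Of the 151, 77 were in cluster 21, a cluster drawn mostly from the library labelled cKO, and 1 cell there held 28 of the 77.

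**Figure D3:**
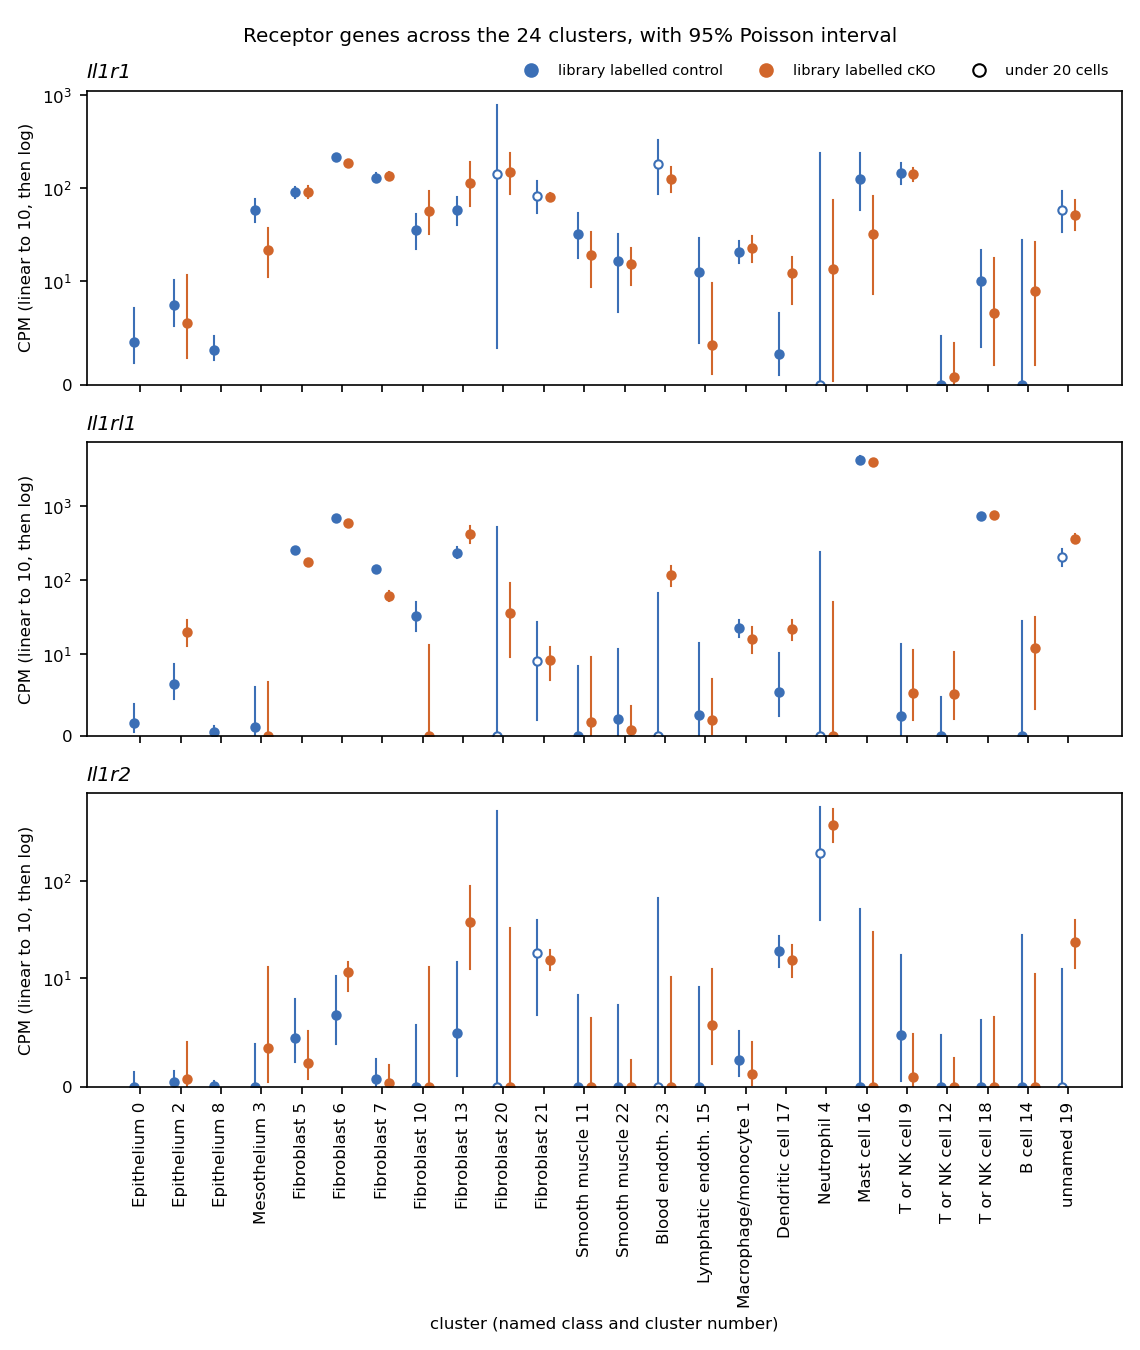
Level of Il1r1, Il1rl1 and Il1r2 (CPM, linear to 10 and then logarithmic) in each of the 24 clusters, by library, with 95% Poisson intervals. Open points rest on under 20 cells, and points with under 5 cells are left out. Il1r1 is close in both libraries in fibroblast clusters 5, 6 and 7 and in cluster 9, and Il1rl1 peaks in mast cells (4192 and 3851 CPM), cluster 18 and fibroblast cluster 6.

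Counted over the members, the most were past the fold in epithelium. Of the 9 members with at least 20 UMIs there, 4 were higher under the cKO label (Il33, Il1rn, Il1rl1, Il1f6), where 10.3% of all genes tested in the class were, and 2 lower (Il1a, Il1b), where 5.27% were. Nearly all the epithelial Il1b UMIs lay in sub-cluster E13, led by genes of dendritic cells. In cluster 2, 3 of 9 were higher (Il33, Il1rn, Il1rl1), against 5.76% of genes, and 2 lower, against 4.37%. Dendritic cells had 2 of 7 higher (Il1rl1, Il1r1), against 4.79%, and 1 lower (Il1a), against 3.6%. Of these, Il1r1 stayed past the fold under 7 of 12 processing alternatives (log2 ratios from 0.23 to 1.73) and was 0.23 without the cells of highest doublet score and 0.78 without the cell with the most UMIs in each library. Macrophages or monocytes had 1 of 7 higher (Il1a), against 1.07%. No member was past the fold in fibroblasts (0 of 7), T or NK cells (0 of 3), smooth muscle (0 of 2) or mast cells (0 of 1), where 1.83%, 3.43%, 5.3% and 14.6% of genes were, either way. In the small classes, mesothelium had 1 of 4 higher (Il1b, against 3.33%) and 1 lower (Il1r1, against 2.33%), lymphatic endothelium 2 of 3 lower (Il33 and Il1rn, against 8.49%) and B cells 2 of 2 higher (Il1b and Il1rn, against 9.64%). Most UMIs of Il33 and Il1rn in lymphatic endothelium, and of Il1b and Il1rn in B cells, lay in 1 to 3 cells. Those of Il1b in mesothelium lay in 1 and 2 cells. Il33 in lymphatic endothelium and Il1b and Il1rn in B cells passed the floor through 1 library alone. So did Il1a and Il1b in epithelium, Il1a, Il1r1 and Il1rl1 in dendritic cells, and Il1b and Il1r1 in mesothelium. Their place in the counts thus rests on the library where they were high. The counts in dendritic cells and in the small classes, and that of lower members in epithelium, are therefore no result about the members. The median log2 ratio of the members over the floor was 0.65 in epithelium, where all genes had 0.22, and 0.10 in macrophages or monocytes, where all genes had 0.08.

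**Figure D4:**
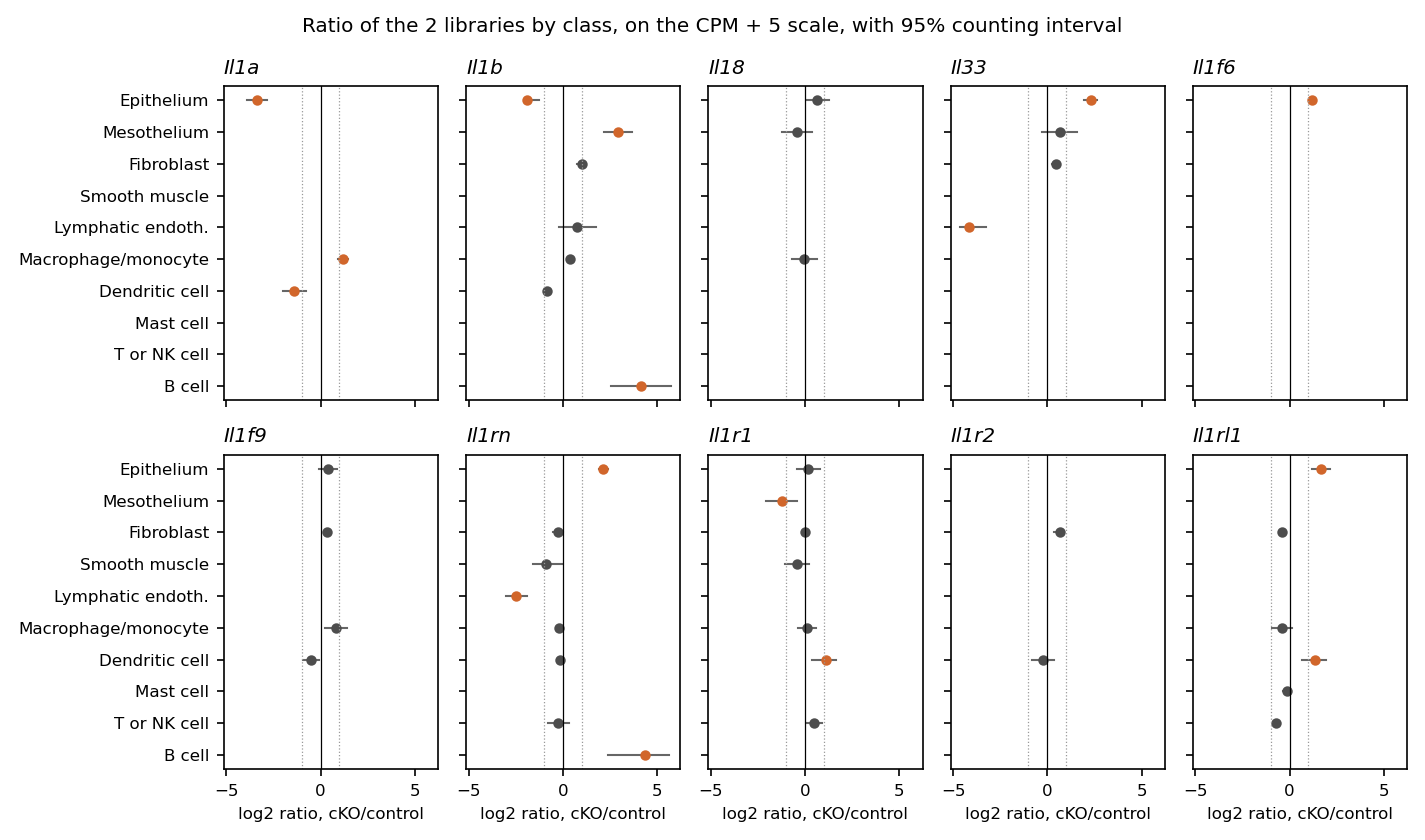
Log2 ratio, cKO label over control label, on the CPM + 5 scale for each gene in each compared class where it had at least 20 UMIs, with the 95% counting interval. Orange points are past 1 or -1 (dotted lines). No fibroblast point and not the single mast cell point (Il1rl1) lies past the fold, while the epithelial points of Il1a, Il1b, Il33, Il1rn, Il1f6 and Il1rl1 lie past the fold. Nearly all the epithelial Il1b UMIs were in sub-cluster E13, led by genes of dendritic cells.

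The rest of the pathway was read from lists of genes. Of 11 other family ligands and receptors, 7 passed the floor in epithelium and 0 passed the fold, as did 0 of 3 in fibroblasts, 0 of 4 in macrophages and 0 of 4 in dendritic cells. Il1rl2, the interleukin 36 receptor and the list's most abundant gene in fibroblasts, had 583 UMIs (61.2 CPM) and 1008 UMIs (62.9 CPM) in fibroblasts there. Of 16 signalling genes, 0 passed the fold in fibroblasts or macrophages, and in epithelium 2 were lower: Irak2 (69.7 and 14.8 CPM) and Rela (203 and 86.7 CPM). In the shared cluster 2, 1 of the 16 was lower and 0 were higher. Of 18 maturation and release genes, 3 were lower in epithelium (Ctss, Aim2, Casp8) and 2 in dendritic cells (Casp8 and Casp1, the interleukin 1 beta converting enzyme, at 68.5 and 23.8 CPM). Over the floor were 13 and 12 of the 18. Of all genes tested, 10.3% were higher and 5.27% lower in epithelium, and 4.79% and 3.6% in dendritic cells. In cluster 2 the shares were 5.76% higher and 4.37% lower, in fibroblasts 1.83% either way and in macrophages 1.07% higher. On so few genes these counts are given as a description.

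Genes that interleukin 1 is known to induce differed in both directions. To set beside the counts, 10.3% of all genes were higher and 5.27% lower in epithelium, and 5.76% and 4.37% in cluster 2. The shares were 4.79% higher and 3.6% lower in dendritic cells and 1.83%, either way, in fibroblasts. In epithelium 22 of 24 passed the floor, 1 was higher (Cxcl5, 8.63 and 51.1 CPM) and 4 were lower: Lcn2, an antibacterial siderophore binder (77266 and 281 UMIs, a log2 ratio of -4.26), Tnfaip3, a brake on NF-kB (260 and 21.5 CPM), Zc3h12a and Csf3. In the shared cluster 2, 18 of 24 passed the floor, of which 0 were higher and 5 lower. In fibroblasts 2 of 23 were higher, Il6 (174 and 449 CPM) and Ptgs2, the inducible prostaglandin synthase (66.2 and 148 CPM), and 2 lower, Mmp3 (875 and 274 CPM) and Lcn2. In dendritic cells 7 of 17 were higher, led by Ccl2 (10.7 and 326 CPM), and 1 was lower, Lcn2 (246 and 1 UMIs), a gene abundant in epithelium. The epithelial markers in dendritic cell-like cells were lower under the cKO label too (0.0825% and 0.0176% of UMIs), and their part in the Lcn2 counts was not tested. Ccl2 was abundant in macrophages as well (1509 and 2409 CPM). The part of RNA from other cells in the 7 higher genes was not tested. Of the type 2 response genes, Il4 (1 and 23 UMIs) and Il13 (2 and 21 UMIs) were the 2 of 3 past the fold in mast cells, both higher, where 14.6% of all genes were, either way. Both passed the floor through the library labelled cKO alone, so this count is no result about the list. On the same list 2 of 5 were higher in fibroblasts, 2 of 4 in macrophages and 1 of 4 in dendritic cells, and 1 of 4 was lower in T or NK cells. The shares of all genes were 1.83% (either way), 1.07%, 4.79% and 3.43% (either way).

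Interferon-stimulated genes were lower under the cKO label in the main classes above. Of 15 in the files, 14 were past the fold downward in epithelium (0.270% and 0.0291% of UMIs), 15 in dendritic cells, 14 in macrophages or monocytes and 12 in fibroblasts. Of all genes tested, 5.27% were lower in epithelium, 3.6% in dendritic cells and 1.83%, either way, in fibroblasts. The downward share for macrophages or monocytes was not computed. Of 15 dissociation response genes, 0 were past the fold in fibroblasts, dendritic cells or macrophages. In epithelium 2 were lower, and in its shared cluster 2 there were 4 lower, where 5.27% and 4.37% of all genes were. The median log2 ratio in cluster 2 was -0.69, with 1.34% and 0.838% of UMIs. In lymphatic endothelium 4 of 15 were higher, in mast cells 5 of 12 and in mesothelium 1 of 15, and in B cells 3 of 13 were higher and 4 lower. Of all genes, 14.6% were past the fold either way in mast cells, 3.33% higher in mesothelium and 9.64% higher in B cells. No share of all genes was computed for the lymphatic count or the lower B cell count, so these are no result about the list. The part of either state in the values of the members was not tested.

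The genes most like each member across the 24 clusters, among 13196 compared on the log2(CPM + 5) scale, are given as a description. Il1a was closest to Gm13822, Plek2 and Dsp (Pearson r of 0.905, 0.877 and 0.864), and Il1f6 to BC048679, Slc34a2 and Gm45145 (0.977, 0.977 and 0.975). Il1b was closest to Gm46224, Mpeg1 and Spi1 (0.938 to 0.922), and Il1rn to Mpeg1, Cd14 and Gm46224 (0.938 to 0.912). Il18 followed the mesothelial genes Upk3b, Tm4sf5 and Msln (0.847 to 0.812), Il33 Podxl, Cracr2b and Adgrf5 (0.911 to 0.881), and Il1f9 Chil1, Slfn4 and Hcar2 (0.941 to 0.913). The cluster levels of Il33 rest on few cells. In lymphatic endothelium 42 of its 48 control UMIs were in 1 cell, and in blood endothelium all 10 cKO UMIs were. Among receptors, Il1r1 was nearest to Itgb5, Pdgfrb and Nrp1 (0.823 to 0.780), Il1r2 to G0s2, S100a8 and Havcr2 (0.871 to 0.838), and Il1rl1 to Tmem132e, Cadm3 and Il6 (0.802 to 0.720). All clusters share the same 2 libraries and differ in depth.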

How the data were processed

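Whole uterus was profiled by droplet sequencing with a kit that reads transcript 3′ ends, per the labels' protocols. The authors deposited unfiltered UMI counts per gene and barcode. Per the file headers they were made with Cell Ranger version 4, while the submitters' processing notes name Cell Ranger 6.1.1 and mm10. No normalization had been applied to the deposited counts. Gene positions came from GENCODE M21 and promoter sequence from RefSeq, both on GRCm38.

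Cells were barcodes with at least 1000 UMIs, 500 genes and at most 20% mitochondrial UMIs. Scrublet marked 4 of 7076 cells (0.0565%), so it did not work and doublets remain. Cells were clustered together with scanpy 1.11.5 (2000 variable genes without the members and lists, 30 components, 15 neighbours, resolution 1.0) and named from markers. A cluster needed at least 3 markers in at least 25% of its cells and at 2 times the median cluster. Cluster 19, deep and with fibroblast markers, stayed unnamed.

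UMIs were summed per class and library, scaled to CPM and compared with 5 CPM added, which understates changes of low genes. Classes with at least 20 cells per library were compared. Levels have exact Poisson intervals, and ratios exact conditional ones (scipy 1.17.1). The scripts were tested on simulated counts. Free RNA was estimated from droplets of 10 to 100 UMIs. All 10 members were named. Of each list, at most 5 genes past the fold each way, or the most abundant, were named, together with the 3 genes most like each member. The members and lists were chosen with earlier results of these data known, so no count over them is independent support.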

Additional observations from a re-analysis of the deposited data

Results flagged for a closer look

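Of the members, 5 were past the fold in opposite directions in different classes. The gaps below are differences of log2 ratios, cKO over control, and were not tested. Il1a was higher in macrophages or monocytes (1.20) and lower in epithelium (-3.37), a gap of 4.57, and 1 cell held 39.5% of the cKO macrophage UMIs. Il1b was higher in B cell-like cells (4.14) and lower in epithelium (-1.89), a gap of 6.03, with its B cell UMIs in 3 cells. Nearly all its epithelial UMIs were in E13, the sub-cluster led by genes of dendritic cells. Il33 was higher in epithelium (2.31) and lower in lymphatic endothelium (-4.17), a gap of 6.48, with 42 of the 48 lymphatic control UMIs in 1 cell. Il1rn was higher in B cell-like cells (4.36) and lower in lymphatic endothelium (-2.46), a gap of 6.82, with 60 of 83 B cell UMIs and 73 of 77 lymphatic control UMIs in 1 cell each. In the same B cell-like class Ccl2 (0 and 305 UMIs) and Cxcl1 (0 and 229 UMIs) were higher too. Of 12 genes there that interleukin 1 is known to induce, 7 were higher and 2 lower, where 9.64% of all genes tested were higher. All 7 had 0 UMIs under the control label and passed the floor through the library labelled cKO alone. This count is therefore no result about the list. The part of RNA from other cell types in the B cell values was not tested. Il1r1 was higher in dendritic cells (1.11) and lower in mesothelium (-1.25), a gap of 2.35, on 5 and 24 UMIs and on 54 and 12 UMIs, and the dendritic cell value stayed past the fold under 7 of 12 alternatives.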

How the results depend on the processing

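The log2 ratios of the members were recomputed under 12 alternatives each. In each member's top class, 102 of 120 values moved by less than the counting interval, and 18 moved by more; in other classes 336 of 420 stayed, 82 moved by more and 2 that were past the fold reversed. In the top classes no value past the fold changed sign, while some values short of it did, among them Il18 in mesothelium, Il1r1 in fibroblasts and Il1rl1 in mast cells. The causes were not tested. With median-of-ratios scaling, Il1b in dendritic cells was -1.03, Il1f6 in epithelium 0.86 and Il1rn in macrophages -0.33. With 1 CPM added, Il33 in lymphatic endothelium was -5.37; with 20 it was -2.67, and Il1a in epithelium -2.60. Without clusters drawn from 1 library, Il1a in epithelium was -2.21, Il1f6 in epithelium 0.11 and Il1r1 in fibroblasts 0.17. Thinned to 1000 UMIs per cell, Il1a in epithelium was -1.60, Il1f6 in epithelium 0.70, Il1r1 in fibroblasts 0.50, Il1rn in macrophages -0.058, Il18 in mesothelium 0.92 (from -0.42) and, reversed, Il1a in macrophages -0.24. Without the cell with the most UMIs of the member in each library, an alternative chosen after seeing the data, Il1f6 in epithelium was 0.81 and Il33 in lymphatic endothelium -2.05. At a clustering resolution of 0.5 the latter was -3.02. With cells of at least 2000 UMIs, Il1rl1 in mast cells was 0.18. Without the highest doublet scores, Il1rn in lymphatic endothelium reversed to 2.90.

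Il1a, Il1rn and Il33 in epithelium stayed past the fold under all 12 alternatives (-3.71 to -1.60, 1.72 to 3.05 and 1.36 to 2.84), and Il1f6 there under 8. Il1r1 in dendritic cells stayed past it under 7 (0.23 to 1.73), Il1a in dendritic cells and in macrophages, Il1b in epithelium and Il1rl1 in dendritic cells under 10 each, and Il1rl1 in epithelium, Il1r1 in mesothelium and Il1rn in lymphatic endothelium under 11 each. No paired analysis was possible because each group is 1 library. Each library pools 3 mice, so variation between mice cannot be told apart from the difference between groups, and low-UMI members such as Il18 and Il1r2 are limited by depth.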
